A study of Mus musculus with 8 samples.

Results

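Cldn15, Cdh1, Cdh2, Cdh11, Tjp1, F11r, Ocln and Cgn encode cadherins and tight junction proteins, which hold the cells of an epithelial sheet to each other. They were chosen by name, as the entries of the expression table that carry 1 of these 8 symbols, and 7 of the 8 were found among its 13687 genes. Cdh1 was not analysed here. RNAseq was performed on primary MCs (mesothelial cells, which line the abdominal cavity), obtained by trypsin digestion of the parietal peritoneum. The mice were 2 CAV1-deficient animals of the strain B6.Cg-CAV1tm1mls/J, labelled Cav-1- and called CAV1-/- here, and 2 WT littermates. The allele is a constitutive knockout, so that all cells of these animals carried it before culture. CAV1 encodes caveolin1, the coat protein of caveolae, which are pits of the cell membrane. Cells of each mouse were grown to confluence in 1 culture that then stayed static and in 1 culture that was stretched for 24 h, which gave 8 libraries in 4 groups of 2 cultures. Mice of both sexes were used in the study, and neither their ages nor the stretch regime of the mouse cultures are given in the sources used here. Replicate 1 and replicate 2 of a genotype are different mice, and the static and the stretched culture with the same number within a genotype are from the same mouse.

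Tight junctions seal the space between neighbouring epithelial cells. Their membrane strands are made of claudins, together with occludin and junctional adhesion molecules, and are tied to actin by cytoplasmic plaque proteins such as ZO-1 and cingulin. Adherens junctions lie beside them and are built on cadherins, which bind the same cadherin on the next cell and are linked to actin by catenins. MCs are epithelial in form but come from mesoderm, and they are known to carry N-cadherin. When MCs convert to a fibroblast-like state, in the mesothelial to mesenchymal transition (MMT), loss of junctions is part of the change, and the comparisons below address whether stretch or lack of CAV1 altered these genes.

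The values are TMM-normalized CPM, which are read counts scaled to a common library size with a correction for library composition, and the whole reads behind each value could be recovered. Library totals were between 9777738 and 21203938 reads, with the 4 stretched libraries above the 4 static ones. The smallest amount taken as detectable, 3 reads, was 0.146 to 0.308 CPM depending on the library, and covers counting error only. Cav1, the targeted gene, was at 247 to 764 CPM in the 4 WT cultures and at 12.8 to 34.5 CPM in the 4 CAV1-/- cultures. Markers of the labelled cell type were present in every culture, but the summed level of 12 mesothelial markers was 2963 to 3903 CPM in WT and 854 to 1116 CPM in CAV1-/- cultures. The summed level of 14 leukocyte markers was 4857 and 4865 CPM in the cultures of CAV1-/- mouse 1, against 76.3 to 468 CPM in the other 6 cultures, and all 14 were higher in those 2 cultures than in any other. The summed level of 9 fibroblast markers was 12136 to 29476 CPM over all cultures. Of the 9, 8 overlapped between the 4 WT and the 4 CAV1-/- cultures. In either condition 3 of the 9 were higher and 6 lower in CAV1-/- MCs by their mean log2 level. The 1 without overlap, Tcf21, was at 5.77 to 60.5 CPM in WT cultures and at 0 reads in both cultures of CAV1-/- mouse 1. In those of CAV1-/- mouse 2 it was at 0.822 and 0.438 CPM. Tcf21 thus reached 1 CPM in WT libraries alone and passed the filter through the group in which it is higher. Nothing is read from its lack of overlap. The summed levels of 5 endothelial and 2 columnar or gland epithelial markers were 22.4 to 73.4 and 8.21 to 21.9 CPM. In cultures of this kind, fewer cells of a type and less RNA per cell cannot be told apart.

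**Figure D1:**
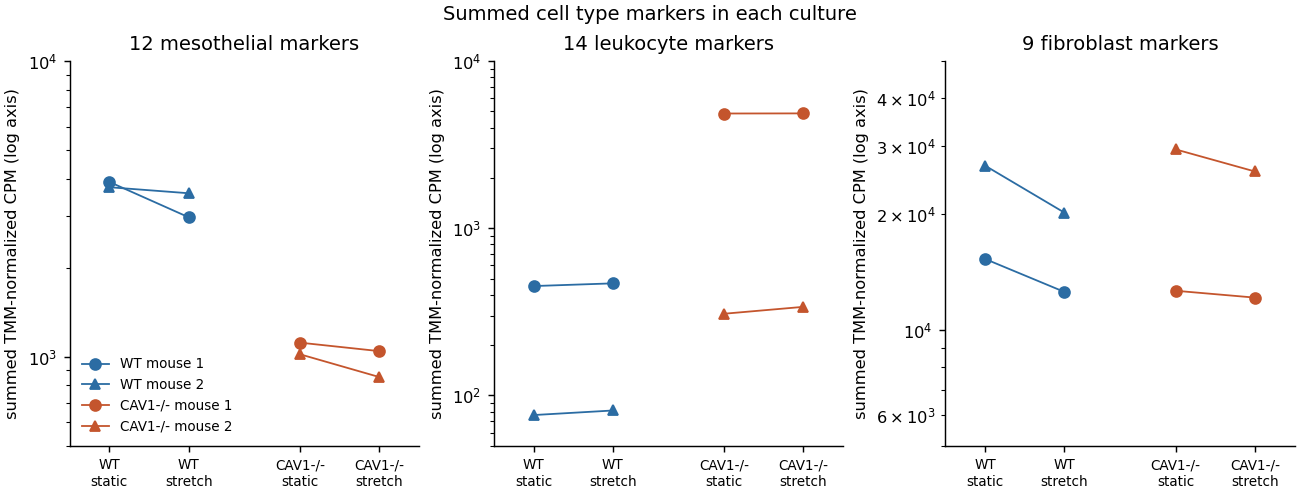
Summed TMM-normalized CPM (log axis) of 12 mesothelial, 14 leukocyte and 9 fibroblast markers, with 1 point per culture and a line joining the static and the stretched culture of each mouse. Mesothelial markers were lower in all 4 CAV1-/- cultures (854 to 1116) than in the 4 WT cultures (2963 to 3903), and the leukocyte markers of CAV1-/- mouse 1 stood at 4857 and 4865.

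Cldn15 was the only gene of the 7 whose level differed between the genotypes by the adjusted test. It encodes claudin-15, a claudin that forms pores for small cations in the tight junction and is best known from the gut. Cldn15 (ENSMUSG00000001739) spans bases 136966616 to 136975858 of chromosome 5 (GRCm38, as are all positions of genes here). In WT MCs it was at 19.5 CPM (279 reads) and 30.2 CPM (374 reads) in static culture, mouse 1 given first here and throughout, and at 17.5 and 19.7 CPM under stretch. In CAV1-/- MCs it stood at 1.32 and 2.06 CPM in static culture, from 16 and 20 reads, and at 0.825 and 0.985 CPM under stretch, from 17 and 18 reads. All 4 CAV1-/- cultures were below all 4 WT cultures, and each was above the limit set by 3 reads. The group means were 24.9 ± 7.55 and 1.69 ± 0.521 CPM without stretch and 18.6 ± 1.56 and 0.905 ± 0.113 CPM with stretch (SD, n = 2), so that the WT mean was 14.7-fold and 20.6-fold higher. Genes were compared by limma on log2(CPM + 1) over the 13665 genes that reached 1 CPM in at least 2 libraries, with Benjamini-Hochberg adjustment, and fold changes on this scale understate the difference of a gene as low as Cldn15 in CAV1-/- MCs. On that scale limma gave a difference of −3.25 without stretch (standard error 0.27, adjusted p = 0.0361). Under stretch limma gave −3.36 (standard error 0.27, adjusted p = 0.0265). By p-value Cldn15 was number 6 of 13665 genes without stretch and number 7 with stretch. The same test called 9 genes lower in CAV1-/- MCs without stretch, 0.0659% of those tested, and 7 with stretch, or 0.0512%. Both comparisons rest on the same 4 mice, so that they are not separate evidence.

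**Figure D2:**
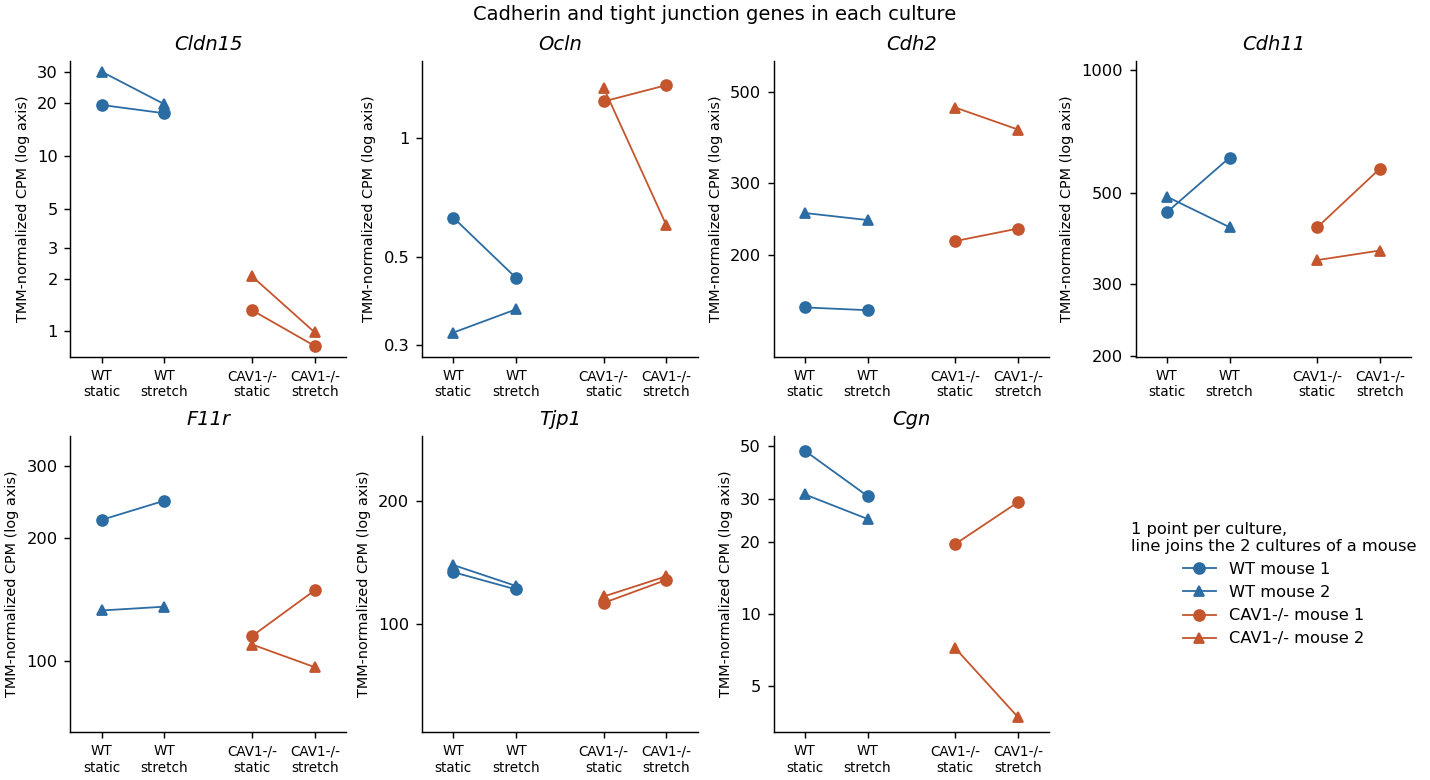
TMM-normalized CPM (log axis, its range set for each gene) of the 7 genes in the 8 cultures, with 1 point per culture and a line joining the cultures of a mouse. For Cldn15 the 4 CAV1-/- cultures (0.825 to 2.06) lie below the 4 WT cultures (17.5 to 30.2), while for the other 6 genes the 4 cultures of the genotypes overlap.

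Both cultures of a mouse deviated together, and with the animal as a random effect the adjusted p-value of Cldn15 from limma was 0.0661 without stretch, above the threshold of 0.05, and 0.0404 with stretch. Of 12 other settings, this one included, 9 kept the call without stretch and 10 with stretch. The call without stretch was also lost in edgeR (adjusted p = 0.0841) and with only the 4 libraries of the comparison in limma (adjusted p = 0.160). Under stretch it was lost in limma with a pseudocount of 5 (adjusted p = 0.0609) and with only the 4 libraries (adjusted p = 0.171). It was lost in either condition when any culture of the comparison was left out (adjusted p from 0.134 to 0.256 and from 0.110 to 0.233 in limma). Without both cultures of CAV1-/- mouse 1, in which leukocyte markers were high, the log2 differences were −3.05 and −3.30, and the adjusted p-values from limma were 0.219 and 0.221. The mesothelial markers were lower in CAV1-/- cultures as well, by 3.58-fold without stretch and 3.44-fold with stretch for their sum. All 12 had a lower mean there, with log2 differences from −4.34 to −0.15 without and −4.40 to −0.25 with stretch. Of the 9 genes called lower without stretch and the 7 with stretch, 2 in each were mesothelial markers. Of the 11 that reached 1 CPM in at least 2 libraries of each genotype, 9 were lower without overlap in all 4 CAV1-/- cultures. Wt1 and Krt19 overlapped. Of all genes that met this limit, 5.57% were lower without overlap. The part of the mesothelial markers in the difference of Cldn15 was not tested.

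The bases in front of a RefSeq start of transcription are shown for Cldn15, the gene with the difference, and for F11r, which has a match to the motif searched. They are RefSeq sequences of build GRCm38.p6, 250 bases up to the start, 5′ to 3′ on the strand of the gene, and RefSeq windows were found for 5 of the 7 genes. The motif was the E-box CAGGTG, which EMT repressors of the SNAI and ZEB families bind, read on both strands, so that it appears as CAGGTG or as CACCTG. Capitals mark a match.
Cldn15, chr5:136967619-136967868, plus strand: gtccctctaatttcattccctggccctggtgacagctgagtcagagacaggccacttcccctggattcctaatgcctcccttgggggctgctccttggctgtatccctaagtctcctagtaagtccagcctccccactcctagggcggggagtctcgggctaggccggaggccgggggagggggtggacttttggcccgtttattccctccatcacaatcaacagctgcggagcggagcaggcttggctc
F11r, chr1:171437311-171437560, plus strand: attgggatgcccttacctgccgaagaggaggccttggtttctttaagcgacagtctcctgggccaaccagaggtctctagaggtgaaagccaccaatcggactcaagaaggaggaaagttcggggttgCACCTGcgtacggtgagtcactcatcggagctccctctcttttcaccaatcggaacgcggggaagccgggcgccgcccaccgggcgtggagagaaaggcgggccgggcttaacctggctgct
The window of Cldn15 held 0 matches and that of F11r held 1, at position −122 from the start. Tjp1 and Cgn had 0 matches, and Ocln, which has windows for 2 starts, had 0 in the upstream and 2 in the downstream window. Of all 32851 windows of the same length, 17.2% held the motif. A match is a run of letters and not a measured site, and its lack in Cldn15 concerns only these 250 bases. The window of Cldn15 and that of Tjp1 (chromosome 7, 65371245 to 65371494) lie inside the spans given here for these genes. The downstream window of Ocln (chromosome 13, 100552499 to 100552748) overlaps the span of its gene, which ends at 100552718. Both its matches lie within that span. The bases before the outermost annotated starts of Cldn15 and Tjp1 were not searched.

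The other membrane proteins of the tight junction were Ocln, which encodes occludin, and F11r, which encodes the junctional adhesion molecule JAM-A. Ocln (ENSMUSG00000021638, chromosome 13, 100496507 to 100552718) was close to the detection limit. It was at 0.630 and 0.323 CPM in static WT cultures, from 9 and 4 reads, and at 0.444 and 0.370 CPM in stretched ones, from 9 and 6 reads. In CAV1-/- MCs it was at 1.24 and 1.34 CPM in static culture, from 15 and 13 reads, and at 1.36 and 0.602 CPM under stretch, from 28 and 11 reads. The CAV1-/- cultures were above the WT cultures within each condition, but the lowest CAV1-/- culture was below the highest WT culture. Ocln reached 1 CPM in CAV1-/- libraries alone, so it entered the test through the group in which it is higher, and nothing is read from its direction. The log2 differences were 0.64 (standard error 0.29, adjusted p = 0.677 from limma) and 0.47 (standard error 0.29, adjusted p = 0.950 from limma).

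F11r (ENSMUSG00000038235, chromosome 1, 171437535 to 171464603) was at 222 and 133 CPM in static WT cultures and at 247 and 136 CPM in stretched ones. CAV1-/- MCs had 115 and 110 CPM in static culture and 149 and 96.7 CPM under stretch. The static CAV1-/- cultures were below both static WT cultures, while the stretched cultures of the genotypes overlapped. WT mouse 1 was the highest in either condition and stood well above WT mouse 2. The log2 differences were −0.61 in static and −0.61 in stretched cultures (standard error 0.38 for each, adjusted p = 0.801 and 0.950 from limma), with a 95% confidence interval from −1.53 to 0.32 in static culture.

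The plaque proteins were Tjp1, which encodes the scaffold ZO-1, and Cgn, which encodes cingulin, a linker between ZO-1 and actomyosin. Tjp1 (ENSMUSG00000030516, chromosome 7, 65296165 to 65527781) had the smallest spread between mice of the 7 genes, 1.04-fold or less in each group. It was at 134 and 140 CPM in static WT, 122 and 124 in stretched WT, 113 and 117 in static CAV1-/- and 128 and 131 in stretched CAV1-/- cultures. The CAV1-/- cultures were below the WT cultures without stretch and above them with stretch. In limma the log2 difference was −0.25 without stretch (standard error 0.0945, unadjusted p = 0.0371, adjusted p = 0.558) and 0.078 under stretch (standard error 0.0945, adjusted p = 0.991). The 95% confidence intervals ran from −0.48 to −0.021 and from −0.15 to 0.31.

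Cgn (ENSMUSG00000068876, chromosome 3, 94760069 to 94786492) was at 47.7 and 31.4 CPM in static WT cultures and at 30.9 and 24.8 CPM in stretched ones. In CAV1-/- MCs it stood at 19.5 and 7.20 CPM in static culture and at 29.2 and 3.72 CPM under stretch. The static CAV1-/- cultures were below the static WT cultures, while the stretched culture of CAV1-/- mouse 1 was within the range of the WT cultures. The CAV1-/- mice differed from each other 2.71-fold in static and 7.84-fold in stretched culture, more than the 1.52-fold and 1.25-fold of the WT mice. The log2 differences were −1.61 (standard error 0.88, adjusted p = 0.756 from limma) and −1.27 (standard error 0.88, adjusted p = 0.958 from limma). Without CAV1-/- mouse 1 they were −2.28 and −2.60, with adjusted p-values of 0.281 and 0.299 from limma, a setting chosen after its values were seen. Without the stretched culture of CAV1-/- mouse 2 the difference with stretch was 0.071.

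The cadherins were Cdh2, which encodes N-cadherin, the classical cadherin of MCs and mesenchymal cells, and Cdh11, which encodes OB-cadherin, a mesenchymal cadherin abundant in fibroblasts. Cdh2 (ENSMUSG00000024304) was at 148 and 253 CPM in static WT cultures and at 146 and 243 CPM in stretched ones. CAV1-/- MCs had 216 and 458 CPM in static culture and 232 and 405 CPM under stretch. In every group mouse 2 was higher than mouse 1, and WT mouse 2 was above CAV1-/- mouse 1, so that the genotypes overlapped. The log2 difference was 0.70 in either condition (standard error 0.50, adjusted p = 0.827 without and 0.959 with stretch from limma). Without CAV1-/- mouse 1 it was 1.24 and 1.10, with adjusted p-values of 0.583 and 0.758 from limma.

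Cdh11 (ENSMUSG00000031673, chromosome 8, 102632095 to 102785642) was at 449 and 490 CPM in static WT cultures and at 611 and 413 CPM in stretched ones. CAV1-/- MCs had 412 and 343 CPM in static culture and 574 and 362 CPM under stretch. The static CAV1-/- cultures lay just below the static WT cultures, and the stretched cultures overlapped. The log2 differences were −0.32 (standard error 0.28, adjusted p = 0.866 from limma) and −0.14 (standard error 0.28, adjusted p = 1.00 from limma). For neither cadherin did the genotype difference pass the adjusted test, with 95% confidence intervals from −0.52 to 1.91 for Cdh2 and from −1.01 to 0.37 for Cdh11 in static culture.

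**Figure D3:**
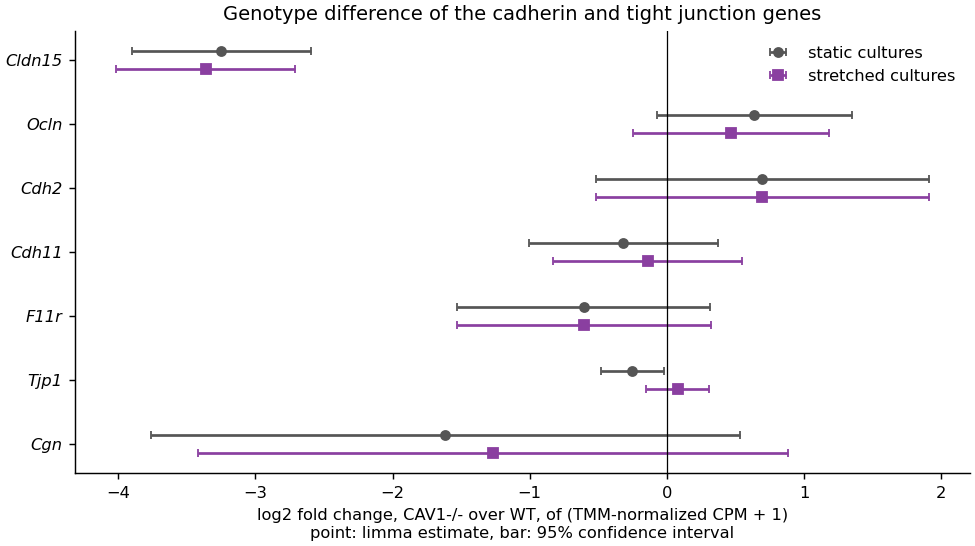
Log2 fold change of CAV1-/- over WT, on the log2(CPM + 1) scale, of the 7 genes in static cultures (circles) and stretched cultures (squares), as estimated by limma with 95% confidence intervals. The intervals of Cldn15 end at −2.60 and −2.71, and those of the other genes include 0 except for Tjp1 in static culture, which ends at −0.021.

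Of the 7 genes, 6 reached 1 CPM in at least 2 libraries of each genotype, and Ocln, which did not, is left out of these counts. Static CAV1-/- and WT cultures did not overlap for 5 of the 6, with Cldn15, Cdh11, F11r, Tjp1 and Cgn lower in CAV1-/- MCs. Groups of 2 separate easily, as 20.5% of the 12689 genes that met the same limit were lower and 15.5% higher in CAV1-/- cultures without overlap. With stretch they did not overlap for 2, Cldn15 (lower) and Tjp1 (higher), against 15.6% of these genes lower and 13.7% higher. Over all 4 cultures of each genotype, only Cldn15 of the 6 was separated, as were 5.57% of these genes in its direction. For groups of 2 cultures the smallest two-sided p-value of an exact permutation test on 1 gene is 0.333.

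Between static and stretched cultures none of the 7 genes passed the adjusted test in either genotype. In limma 0 of 13665 genes passed for stretch in WT MCs and 0 in CAV1-/- MCs (0.0% in each), while 310 (2.27%) and 286 (2.09%) reached an unadjusted p of 0.05 or less, none of them among the 7. The quasi-likelihood test of edgeR also called 0 and 0 genes, and DESeq2 called 3 and 7, with none of the 7 genes among them. With the mouse as a block, which fits this paired design, limma called 0 genes in WT and 1 in CAV1-/- MCs.

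Cldn15 was lower in the stretched than in the static culture of all 4 mice, and it was the only gene of the 7 to move the same way in all of them. The log2 differences were −0.15 and −0.59 in the WT mice and −0.35 and −0.62 in the CAV1-/- mice. Those of the CAV1-/- mice rest on 16 reads without and 17 with stretch (mouse 1) and on 20 and 18 reads (mouse 2). The 95% ranges of counting error (Poisson) of the static and the stretched culture overlapped in both CAV1-/- mice and in WT mouse 1. They did not overlap in WT mouse 2, at 27.2 to 33.4 CPM without and 17.6 to 22.0 CPM with stretch. The group estimates were −0.37 in WT (standard error 0.27, 95% confidence interval −1.02 to 0.28) and −0.48 in CAV1-/- MCs (standard error 0.27, −1.14 to 0.17), with adjusted p = 1.00 for both in limma. With the mouse as a block the standard errors were 0.19 and the adjusted p-values from limma 0.415 and 0.354. Of all genes tested, 16.9% were lower with stretch in all 4 mice.

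Cgn was lower with stretch in both WT mice, by log2 differences of −0.61 and −0.33, and moved in opposite directions in the CAV1-/- mice, by 0.56 and −0.80. Cdh11 was higher with stretch in WT mouse 1 (0.44) and in CAV1-/- mice 1 and 2 (0.48 and 0.078) and was lower in WT mouse 2 (−0.25). Cdh2 had differences between −0.18 and 0.10, F11r between −0.18 and 0.37, and Ocln between −0.54 and 0.077. With the mouse as a block, limma gave estimates in WT MCs of −0.040 for Cdh2 (standard error 0.094), 0.098 for Cdh11 (0.18), 0.093 for F11r (0.14) and −0.47 for Cgn (0.30), with adjusted p-values from 0.500 to 0.881. In CAV1-/- MCs they were −0.039, 0.28, 0.093 and −0.12 with the same standard errors, and the adjusted p-values from limma were 0.542 to 0.891.

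**Figure D4:**
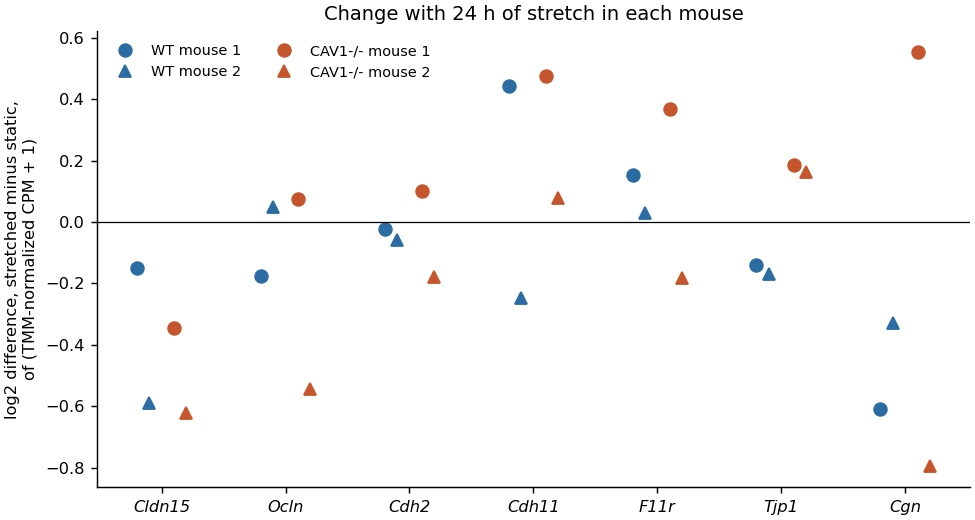
Log2 difference of stretched minus static culture, on the log2(CPM + 1) scale, of the 7 genes in each of the 4 mice. The 4 points of Cldn15 lie below 0, those of Tjp1 lie below 0 in WT and above 0 in CAV1-/- mice, and those of the other genes fall on both sides.

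The stretch effect on Tjp1 had opposite signs in the genotypes. It was −0.14 and −0.17 in the WT mice and 0.19 and 0.16 in the CAV1-/- mice on the log2 scale. The interaction of genotype and stretch was 0.33 (standard error 0.13, 95% confidence interval 0.0030 to 0.65, unadjusted p = 0.0485 and adjusted p = 1.00 from limma). Of all genes tested, 4.87% were lower in both WT mice and higher in both CAV1-/- mice, and 0 of 13665 passed the adjusted test of the interaction in limma, edgeR and DESeq2, with 66 (0.483%) at an unadjusted p of 0.05 or less. For the other 6 genes the interaction was between −0.17 and 0.35, with standard errors of 0.38 to 1.25.

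Levels can be compared between genes only per length, and were therefore divided by the exon length of each gene in kilobases. In static WT MCs, F11r (66.7 ± 23.6 CPM per kb) and Cdh11 (52.7 ± 3.29) were the highest and their cultures overlapped. They were followed by Cdh2 (24.9 ± 9.14), Tjp1 (17.5 ± 0.499), Cldn15 (11.7 ± 3.56), Cgn (6.57 ± 1.91) and Ocln (0.113 ± 0.051), each separated from the next (SD, n = 2). In static CAV1-/- MCs, Cdh11 (42.4 ± 5.52 CPM per kb), F11r (42.3 ± 1.43) and Cdh2 (41.8 ± 21.2) overlapped at the top, and Tjp1 (14.7 ± 0.377), Cgn (2.22 ± 1.45), Cldn15 (0.794 ± 0.245) and Ocln (0.305 ± 0.017) followed. Cldn15 thus stood above Cgn in WT and below it in CAV1-/- MCs, and the order with stretch was the same as without it in each genotype.

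Within each group the 2 mice were apart in a way that recurred across groups. Replicate 1 was lower than replicate 2 in all 4 groups for Cdh2, Cldn15 and Tjp1, and higher in all 4 for F11r and Cgn. Such a split is common in these data, as 21.4% of all genes tested were lower and 21.7% higher in replicate 1 in all 4 groups, although replicates of different genotypes are different mice. The fibroblast markers summed to 12136 to 15294 CPM in the 4 cultures of replicate 1. In those of replicate 2 they summed to 20179 to 29476 CPM. They were lower in replicate 1 within each group, as were Cdh2, Cldn15 and Tjp1. Cdh11, named above as abundant in fibroblasts, was lower in replicate 1 only in static WT culture (449 against 490 CPM). In the other groups Cdh11 was higher in replicate 1. The summed leukocyte markers were higher in replicate 1 within each group, as were 5 smooth muscle and pericyte markers, with sums of 636 to 1311 CPM in replicate 1 and 255 to 473 CPM in replicate 2. The part of other cells in the split was not tested.

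Over the 8 libraries Cdh2 ran against F11r and Cgn, with Pearson's r of −0.88 and −0.87 on the log2 scale. F11r and Cgn gave 0.77, and Cdh2 and Cdh11 gave −0.74. These values describe 8 libraries of 4 mice, which share mice, genotype and depth. The genes most like Cldn15 among 10797 genes with a mean of at least 5 CPM were Lsr (r = 0.992), Lrrn4 (0.989) and Znf41-ps (0.988). Lsr encodes angulin-1, a protein of the tight junction where 3 cells meet, and Lrrn4 is a mesothelial marker. The genes most like Cdh2 were Prep (0.995), Micall2 (0.984) and Emilin1 (0.977), and those most like F11r were Golga1 (0.973), Dos (0.972) and St3gal5 (0.971). Those most like Cgn were Clmn (0.980), Tapbp (0.977) and Ndrg1 (0.976). For Ocln, which rests on 4 to 28 reads per library, they were Nnat (0.952), Spred3 (0.927) and Capzb (0.913). For Tjp1 they were ENSMUSG00000095742, which has no symbol in the table, (0.961), Scand1 (0.948) and Tmub1 (0.922).

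The other genes of the junctions were taken from 5 lists, with 57 genes tested. None of the 57 passed the adjusted test of limma in any comparison. Between the genotypes 7 without and 8 with stretch reached an unadjusted limma p of 0.05 or less, against 8.17% and 6.26% of all genes. These counts hold genes, such as Evpl, that reached 1 CPM in at least 2 libraries of only 1 genotype, so nothing is read from them. The median log2 difference of the 57 was −0.17 without stretch and −0.0064 with stretch, against −0.013 and 0.00 for all genes tested. Of the 57, 45 reached 1 CPM in at least 2 libraries of each genotype. In 5 of the 45 all 4 CAV1-/- cultures were below all 4 WT cultures and in 1 they were above, against 5.57% and 3.29% of all genes that met this limit.

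Among 11 adherens junction partners, Plekha7, which ties the cadherin complex to microtubules, was at 13.3 to 29.0 CPM in WT and 5.39 to 8.94 CPM in CAV1-/- cultures. In limma its log2 difference was −1.74 without stretch (standard error 0.23, adjusted p = 0.0798) and −1.32 under stretch (adjusted p = 0.205). Ctnnd1, which encodes p120-catenin, a protein that binds the cadherin tail, was at 302 to 331 CPM in WT and 360 to 448 CPM in CAV1-/- cultures, a log2 difference of 0.25 and 0.44 (adjusted p = 0.690 and 0.459 from limma). The remaining 9 partners, among them the catenin genes Ctnna1 and Ctnnb1, overlapped between the genotypes. Of 7 other cadherins only Cdh13, which encodes the membrane-anchored T-cadherin, was separated, at 2.81 to 21.8 CPM in WT and 0.00 to 2.62 CPM in CAV1-/- cultures (adjusted p = 0.262 and 0.871 from limma).

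Of 5 other claudins, Cldn3, a sealing claudin, was at 4.52 to 9.51 CPM in WT and 0.206 to 4.04 CPM in CAV1-/- cultures, without overlap (log2 difference −1.63 and −1.55, adjusted p = 0.708 and 0.904 from limma). Cldn4, Cldn10, Cldn12 and Cldn25 overlapped between the genotypes. The entry Cldn25 (ENSMUSG00000022744) is named Cldnd1 in GENCODE M21 and is counted here by its deposited symbol. For 24 other tight junction and polarity genes the median log2 difference between the genotypes was −0.16 without stretch and −0.0026 with stretch. For all genes tested it was −0.013 and 0.00. Pard6b and Prkcz, which encode parts of the Par polarity complex, did not overlap. Pard6b was at 38.5 to 67.9 CPM in WT and 6.46 to 20.7 CPM in CAV1-/- cultures (log2 difference −1.82 and −1.89, adjusted p = 0.240 and 0.330 from limma). Prkcz was at 11.3 to 24.1 CPM in WT and 5.64 to 8.41 CPM in CAV1-/- cultures (log2 difference −1.55 and −0.90, adjusted p = 0.122 and 0.516 from limma). Of 10 desmosome genes Evpl, which encodes the plakin envoplakin, reached 1 CPM in only 1 CAV1-/- library and so entered the test through WT, where it is higher, and is not among the 5. It was at 5.18 to 8.69 CPM in WT and 0.164 to 1.31 CPM in CAV1-/- cultures (log2 difference −2.24 in either condition, adjusted p = 0.130 and 0.205 from limma).

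**Figure D5:**
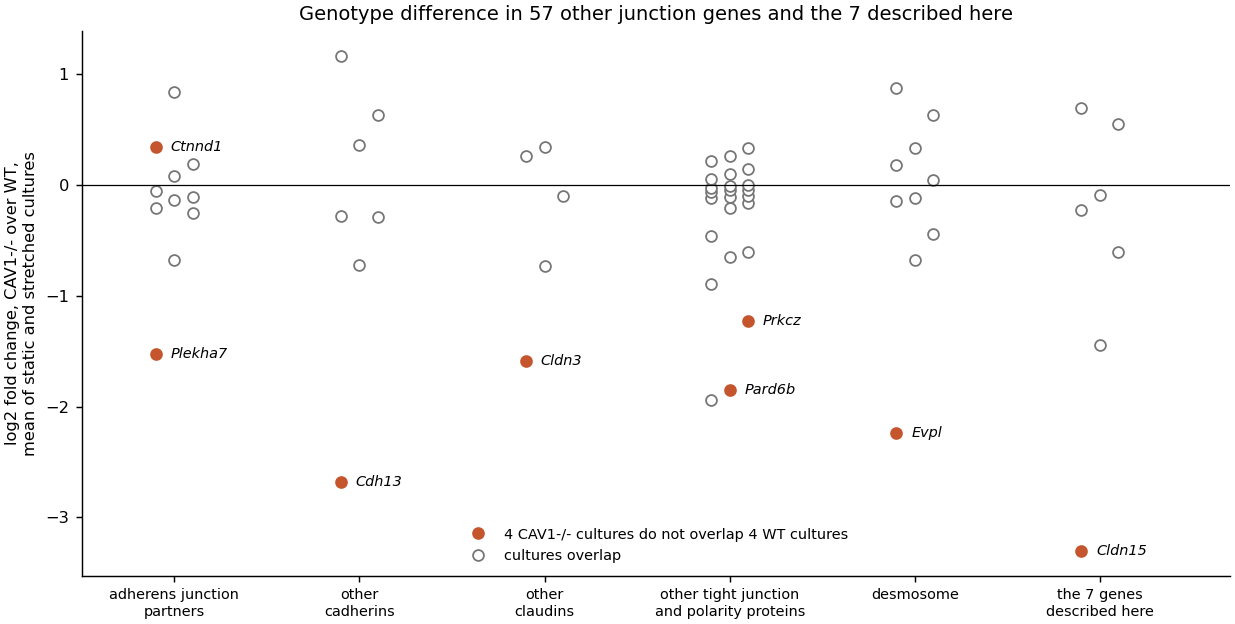
Log2 fold change of CAV1-/- over WT, averaged over static and stretched cultures, of 57 other junction genes in 5 lists and of the 7 genes, with filled points where the 4 cultures of the genotypes do not overlap. Cldn15 is the lowest point, and of the 57 others 6 filled points, that of Evpl included, lie below 0 and 1 above.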

How the data were processed

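The RNAseq files were made by the authors, who removed adaptors with Cutadapt, aligned reads to transcripts of GRCm38, used RSEM for expected counts and corrected library size by the TMM method of edgeR. They deposited this signal, in CPM, for 13687 genes. RSEM splits shared reads by estimate, and the library kit does not mark strand. Within a library all deposited signal values are integer multiples of the smallest step (100% of values, within 0.01 reads), from which reads were recovered. Genes at 1 CPM or more in at least 2 libraries were tested, leaving out 22 and keeping 13665. All 8 libraries entered 1 fit by limma (version 3.58.1, R version 4.3.3) on log2(CPM + 1), with a mean per group, eBayes with an intensity trend, no replicate block, 4 residual degrees of freedom, Benjamini-Hochberg adjustment and a threshold of 0.05. The labels give the animal, with fewer animals per condition than the paper states for this experiment, and both cultures of a mouse deviated together from their group means (r = 0.703 in WT and 0.850 in CAV1-/- mice, across genes). Alternatives were edgeR (version 4.0.16) and DESeq2 (version 1.42.0) on recovered reads, other pseudocounts, filters, scalings and blocks, and each culture left out. The fits were tested on simulated data with each library drawn independently. Cultures of 1 mouse that deviate together were not simulated. Positions and exon lengths are from GENCODE M21. Outside the 7 genes, those named are, in each list, up to 3 with the largest mean genotype difference among genes without overlap, and the 3 most like each gene, which for Cdh11 are not reported here. The genes and lists were chosen with earlier results of these data known.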

Additional observations from a re-analysis of the deposited data

Results flagged for a closer look

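Tjp1, the gene of ZO-1, was lower with stretch in both WT mice and higher with stretch in both CAV1-/- mice. The interaction was 0.33 on the log2 scale (standard error 0.13, unadjusted p = 0.0485, adjusted p = 1.00 from limma). With the mouse as a block the unadjusted p-value was 0.0224 and the adjusted one 0.947 in limma. With groups of 2 no sample could be examined for standing apart from its group.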

How the results depend on the processing

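With 2 mice per genotype, the main fit of limma left 4 residual degrees of freedom, 6.12 after eBayes. These count the 2 cultures of a mouse as independent, although they deviated together. P-values and confidence intervals between the genotypes can therefore overstate the precision that 2 mice per genotype allow. Ocln and, in CAV1-/- MCs, Cldn15 rest on 4 to 28 reads per library. Of the 7 genes, Cldn15 alone was called between the genotypes, and the number called fell from 1 to 0 in static culture with the animal as a random effect, with only the 4 libraries of the comparison and with edgeR, and under stretch with a pseudocount of 5 and with only the 4 libraries. It was 0 in either condition whichever culture of the comparison was left out, and 0 without both cultures of CAV1-/- mouse 1, an alternative chosen after seeing the data. At an unadjusted p of at most 0.05 in limma the numbers were 2 in static culture (Cldn15 and Tjp1) and 1 for the interaction (Tjp1). Of all genes tested, 8.17% and 0.483% reached it. The cause of these losses was not tested.

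Over all genes, 10 were called in static culture, against 6 without trend, 2 with the animal as a random effect, 0 with only 4 libraries, 2 with edgeR, 309 with DESeq2, 1117 unadjusted, 0 without CAV1-/- mouse 1 and 0 to 5 with a culture left out. Under stretch 8 were called, against 0 with only 4 libraries, 238 with DESeq2, 856 unadjusted, 0 without CAV1-/- mouse 1 and 0 to 5 with a culture left out. For stretch 0 genes were called in either genotype, against 3 and 7 with DESeq2 and 310 and 286 unadjusted in WT and CAV1-/- MCs, and for the interaction 66 unadjusted.

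With the replicate block, the mouse for stretch, 1 gene was called in CAV1-/- MCs and 0 in WT MCs. For the genotypes the block was the replicate number, which joins different animals whose static cultures (r = 0.522) and stretched cultures (r = 0.484) deviated together across genes. It gave 246 genes in static and 110 in stretched cultures, with Cldn15 called in both (adjusted p = 0.00848 and 0.00883 from limma) and no other of the 7. Cdh2 then had adjusted p-values of 0.0554 and 0.0732 from limma.

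Among values that were not called, some changed sign, and the cause was not tested. With a culture left out, stretch in WT MCs gave −0.42 to 0.34 for Cdh2, −0.18 to 0.38 for Cdh11, −0.21 to 0.088 for Ocln and −0.34 to 0.52 for F11r. In CAV1-/- MCs it gave −0.58 to 0.50 for Cdh2, −0.055 to 0.61 for Cdh11, −0.51 to 0.045 for Ocln, −0.22 to 0.40 for F11r and −1.46 to 1.22 for Cgn. Between stretched genotypes it gave −0.47 to 0.19 for Cdh11 and −2.60 to 0.071 for Cgn. The interaction ran from −0.54 to 0.54 for Cdh2, −0.15 to 0.51 for Cdh11, −0.42 to 0.19 for Cldn15, −0.45 to 0.11 for Ocln, −0.43 to 0.43 for F11r and −0.99 to 1.69 for Cgn. Cgn under stretch in CAV1-/- MCs was 0.30 with edgeR and 0.28 with DESeq2. The interaction of Cdh2 was −0.017 after median-of-ratios rescaling, −0.023 after quantile normalization, −0.038 with edgeR and −0.051 with DESeq2, that of F11r −0.018, −0.029 and, with DESeq2, −0.0026, and that of Cldn15 0.14 with a pseudocount of 5. Without CAV1-/- mouse 1, F11r under stretch in CAV1-/- MCs was −0.18, and the interaction was −0.14 for Cdh2, −0.020 for Cdh11, −0.28 for F11r and −0.33 for Cgn. Of 604 values for single genes under other settings, 543 kept their direction and their side of the threshold.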
